A study of Mus musculus with 2 samples.

Results

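The genes described here are 10 markers that separate the ventral part of the striatum from its dorsolateral part: the ventral genes Crym, Wfs1, Dlk1, Peg10, Arhgap36, Zcchc12, Gpr101 and Calcr, and the dorsolateral genes Coch and Gpr155. They were taken by symbol, and all 10 were found among the 32531 symbols counted. The study measured RNA on tagged ribosomes by translating ribosome affinity purification (TRAP) and sequencing. Adult control mice of the Stard5-TRAP line JX5852, which carry an EGFP/Rpl10a fusion under Stard5 regulatory sequence and had no treatment, gave ventral striatum tissue for anti-EGFP pull-down. The only group holds 2 libraries, replicate 1 and replicate 2, and the labels do not say whether they came from separate animals.

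Because the Stard5 sequence decides which cells carry the tag, a level here is that of the tagged cells together with any RNA carried along from other cells. No library of input tissue, of dorsal striatum or of another line was analysed here. A level therefore shows which markers are present in this pulled-down RNA, not whether they are enriched in it or in the ventral striatum. In pulled-down RNA of many cells, fewer cells that use a gene and less of its RNA per cell cannot be told apart.

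The striatum is filled mainly by spiny projection neurons, whose gene expression changes gradually from dorsolateral to ventromedial positions. The dorsolateral part receives sensorimotor input, and the ventral part, which includes the nucleus accumbens, is tied to motivation and reward. Regional markers follow these gradients across spiny neurons of both output pathways, so they report position more than cell class. The 10 genes have unrelated products. Crym, Wfs1, Zcchc12 and Arhgap36 encode intracellular proteins, Dlk1 encodes a membrane-bound relative of the Notch ligands, and Peg10 derives from a retrotransposon. Gpr101 and Calcr encode receptors, Coch a secreted matrix protein, and Gpr155 a membrane protein of the lysosome.

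Reads assigned to genes numbered 25830282 in replicate 1 and 29574781 in replicate 2. Counts are given as CPM, reads per 1000000 of these, and a gene counted as detected where both libraries reached 1 CPM. All 12 markers of spiny projection neurons fixed for a tissue check were detected, with a median of 303 CPM and the phosphodiesterase gene Pde10a highest at 1925 ± 67.6 CPM (SD, n = 2). Of 14 markers of hypothalamic and bed nucleus neurons, regions next to the ventral striatum that also use several of the 10 genes, 9 had 0 reads in both libraries. The summed level of that list was 7.08 CPM in replicate 1 against 9.13 in replicate 2, and its only detected member was the transcription factor gene Nkx2-1, at 3.91 and 8.08 CPM. Which cells gave the Nkx2-1 reads was not tested, and 14 markers do not stand for all neurons of these regions. The summed level of 6 astrocyte markers was 814 CPM in replicate 1 against 2788 in replicate 2. Most of it came from Slc1a2, at 741 and 2496 CPM. The summed level of 6 oligodendrocyte markers was 837 and 1290.0 CPM.

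Of the 10 markers, all 10 were detected, against 38.0% of all symbols. At 5 CPM in both libraries 9 were detected, and Coch was the gene left out. The share of all symbols at 5 CPM in both libraries was not computed. The libraries held 50215 and 77582 reads of the 10 genes together, or 0.194% and 0.262% of the reads in genes. Peg10 alone took 44.5% of these reads in replicate 1 and 51.9% in replicate 2.

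**Figure D1:**
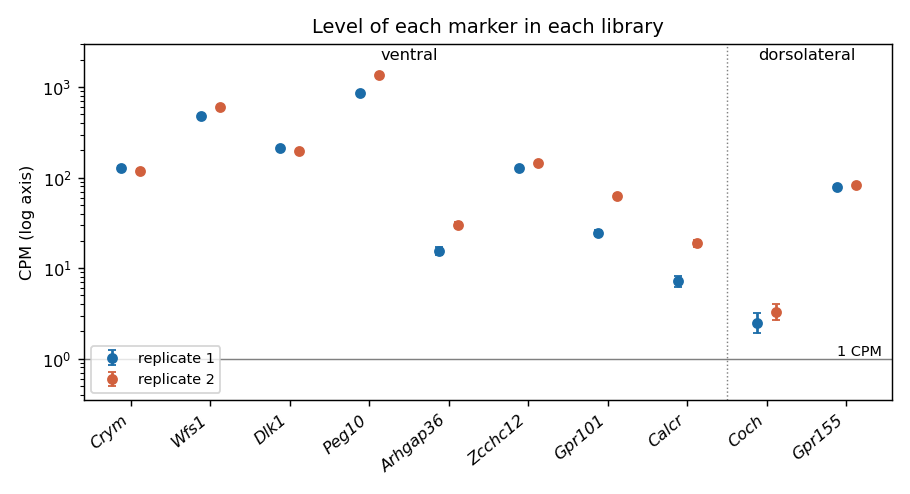
CPM of each of the 10 genes (log axis) in replicate 1 and replicate 2, with exact Poisson 95% intervals that cover counting error only. The libraries lie close together for Crym, Dlk1 and Gpr155 and farthest apart for Gpr101 and Calcr, and Coch is lowest, at 2.48 and 3.31 CPM.

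Peg10 had 866 CPM in replicate 1 against 1362 CPM in replicate 2, with a mean of 1114 ± 351 CPM (SD, n = 2), rank 70 of all symbols. The gene is imprinted, expressed from the paternal copy, and its protein descends from the gag and pol proteins of a retrotransposon. Its GRCm38 position is chromosome 6 from 4747306 to 4760517, plus strand. Zcchc12, which encodes a zinc knuckle protein known as a coactivator in bone morphogenetic protein (BMP) signalling, stood at 127 and 146 CPM, with a mean of 137 ± 13.2 CPM. It lies on the X chromosome from 36195904 to 36199158, also on the plus strand.

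Wfs1 had 481 CPM in replicate 1 against 601 CPM in replicate 2, a mean of 541 ± 84.7 CPM (SD, n = 2). Its product, wolframin, is a membrane protein of the endoplasmic reticulum (ER) that takes part in calcium handling and the response to misfolded protein, and its loss causes Wolfram syndrome. The gene lies on chromosome 5 from 36966104 to 36989205 on the minus strand.

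Crym and Dlk1 were the steadiest of the ventral genes. Crym, whose product mu-crystallin binds thyroid hormone in the cytosol, stood at 129 and 120 CPM (mean 125 ± 6.88 CPM, chromosome 7 from 120186380 to 120202111, minus strand). Dlk1, an imprinted gene whose membrane protein carries repeats like those of epidermal growth factor, stood at 211 and 197 CPM (mean 204 ± 9.61 CPM, chromosome 12 from 109452823 to 109463336, plus strand). For both genes replicate 1 was the higher library.

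Arhgap36, Gpr101 and Calcr were lower, and in all 3 replicate 2 was well above replicate 1. Arhgap36 encodes a protein that binds and inhibits the catalytic subunit of protein kinase A and activates hedgehog signalling. It stood at 15.5 and 30.0 CPM (mean 22.8 ± 10.2 CPM, X chromosome from 49463945 to 49500244, plus strand). Gpr101, an orphan receptor that couples to the stimulatory G protein, stood at 24.7 and 62.6 CPM (mean 43.6 ± 26.8 CPM, X chromosome from 57496668 to 57503757, minus strand). Calcr, the calcitonin receptor, which becomes an amylin receptor when paired with a receptor activity-modifying protein, stood at 7.16 and 18.8 CPM (mean 13.0 ± 8.23 CPM, chromosome 6 from 3685680 to 3764714, minus strand). The Poisson 95% intervals of the libraries did not overlap for any of the 8 ventral genes, Crym and Dlk1 included, and the same held for 72.1% of all detected genes. For Calcr they ran from 6.17 to 8.27 CPM in replicate 1 and from 17.3 to 20.4 CPM in replicate 2.

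The dorsolateral genes differed in level from each other. Gpr155, also called LYCHOS, encodes a lysosomal membrane protein that senses cholesterol and signals to the growth-regulating mTOR kinase complex. It stood at 79.4 and 82.5 CPM (mean 81.0 ± 2.19 CPM, n = 2), with overlapping intervals, on chromosome 2 from 73341506 to 73386572 on the minus strand. Coch, the gene of cochlin, a secreted protein best known from the extracellular matrix of the inner ear, had 64 reads in replicate 1 and 98 in replicate 2. That is 2.48 CPM (95% interval 1.91 to 3.16) and 3.31 CPM (2.69 to 4.04), also overlapping. The gene is at chromosome 12, 51593341 to 51605771, plus strand. Of the 10 genes, only Gpr155 shares exon bases with another annotated gene: 1.80% of them with Gm13703 and 2.49% with Gm13709, both on the opposite strand.

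Levels of different genes were compared per kilobase of annotated exon, since longer transcripts give more reads. Peg10 led at 167 ± 52.6 CPM per kilobase and Wfs1 followed at 143 ± 22.4 (SD, n = 2). Zcchc12 came after them at 59.9 ± 5.78, ahead of Crym at 36.7 ± 2.03 and Dlk1 at 36.1 ± 1.70. The dorsolateral gene Gpr155 came next at 12.1 ± 0.328 CPM per kilobase. Below it lay Gpr101 at 8.07 ± 4.96, Arhgap36 at 6.65 ± 2.99 and Calcr at 3.32 ± 2.10, and Coch closed the order at 0.966 ± 0.197. The highest mean was 173 times the lowest.

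Both libraries gave the same order of the 10 genes, but not every step in it was clear. Neighbours were called separated where the mean gap on the log2 scale, with 0.1 added to each value, exceeded the SD of that gap over the libraries. Peg10 and Wfs1 were not separated, with a gap of 0.20 ± 0.24 log2 units (SD, n = 2). Gpr155 and Gpr101, at 0.73 ± 0.90, and Gpr101 and Arhgap36, at 0.20 ± 0.28, were not separated either. Crym and Dlk1 met the rule with a gap of 0.03 ± 0.01, though their counting intervals overlapped in both libraries. The other 5 steps were separated, with mean gaps from 0.70 to 1.57 log2 units.

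**Figure D2:**
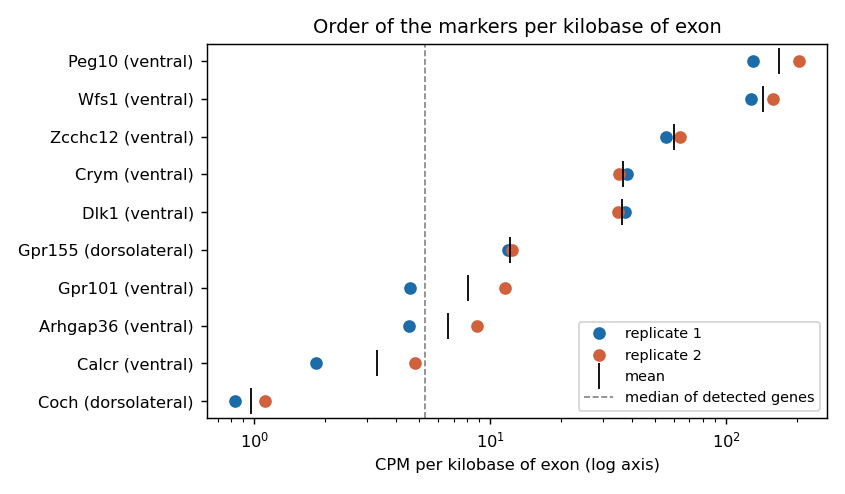
CPM per kilobase of exon (log axis) of the 10 genes in both libraries, with the mean as a black bar and the median of detected genes, 5.31, as a dashed line. Means of 8 genes lie above that line, and the means of Calcr and Coch lie below it.

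Set beside all genes, 8 of the 10 means lay above the median of the 11465 detected genes with a known exon length, 5.31 CPM per kilobase. Peg10 was above 99.2% of these genes, Wfs1 above 99.0%, Zcchc12 above 95.9%, and Crym and Dlk1 above 91.6% and 91.5%. Gpr155 was above 72.6%, Gpr101 above 61.7% and Arhgap36 above 56.3%. Calcr was above 37.4% and Coch above 11.0%. The median of the 8 ventral genes exceeded that of the 2 dorsolateral genes by 3.50 log2 units per kilobase in replicate 1 and 3.18 in replicate 2 (mean 3.34 ± 0.23). The groups overlapped, since Gpr155 lay above the means of 3 ventral genes, and a median over 2 genes follows Coch and Gpr155 alone.

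The libraries were then compared gene by gene with a 2-sided exact binomial test on reads, after scaling of the library sizes with edgeR's TMM method, which trims genes of extreme ratio. A call required a Benjamini-Hochberg adjusted p below 0.05 over all 12374 detected genes and at least a 2-fold ratio. Genes below 1 CPM in either library were left out, however far the libraries differed, so counts of called genes do not cover them. The test takes in counting error only and sets one library of the group against the other, so no condition is tested. Of the 10 markers, 2 were called, both higher in replicate 2, and 0 were called higher in replicate 1. Over all detected genes 17.4% were called in either direction, 9.57% with replicate 2 higher and 7.78% with replicate 1 higher. The share of markers called was thus near the background and is no result about the markers as a set.

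The called genes were the receptors. Calcr was 2.67-fold higher in replicate 2, a log2 ratio of 1.42 (exact binomial test, adjusted p = 3.06e-34), and Gpr101 was 2.59-fold higher, a log2 ratio of 1.37 (adjusted p = 6.18e-106). Arhgap36 lay just short of the required fold at 1.97-fold, a log2 ratio of 0.98. Peg10 had a log2 ratio of 0.68, Coch 0.45, Wfs1 0.35, Zcchc12 0.22 and Gpr155 0.08. Dlk1 and Crym, at -0.07 and -0.09, were the only genes of the 10 with a ratio below 0. The median over the 10 was 0.40, against 0.00 over all detected genes, whose central 90% ran from -1.21 to 1.38. Without a fold minimum 8 of the 10 passed at an adjusted p below 0.05, and so did 78.8% of all detected genes. Coch and Gpr155 did not pass, with adjusted p of 0.0786 and 0.0775.

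**Figure D3:**
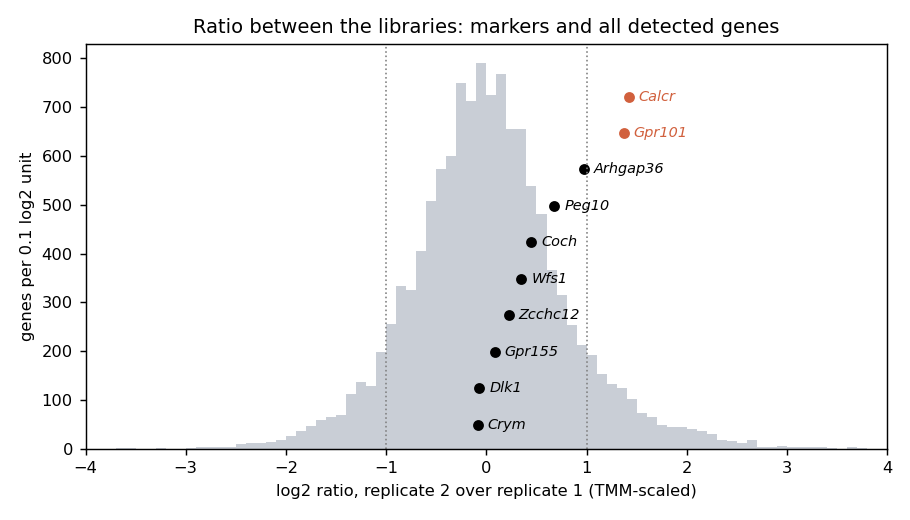
Histogram of the log2 ratio of replicate 2 over replicate 1 for 12374 detected genes, in steps of 0.1, with the 10 markers as points at arbitrary heights. Dotted lines mark a 2-fold ratio, beyond which Calcr and Gpr101 (orange) lie at 1.42 and 1.37.

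Other lists also differed between the libraries. Over all detected genes 49.8% had a ratio above 0, 9.57% were called higher in replicate 2 and 7.78% higher in replicate 1. All 6 astrocyte markers had ratios above 0, with a median of 1.87 and 5 called higher in replicate 2. All 6 oligodendrocyte markers also lay above 0, with a median of 0.66 and 2 called. Markers of cholinergic and GABA interneurons had medians of 0.60 and 0.52 over 4 detected genes each, with 1 and 0 called higher in replicate 2. The 12 spiny neuron markers had a median of -0.35, with 2 above 0 and 1 called higher in replicate 1. The microglia list had a median of -0.44 over its 6 genes, with 0 above 0 and 0 called. The endothelial and mural list had a median of -0.70 over its 4 detected genes, with 1 above 0 and 2 called higher in replicate 1. The summed level of all 6 genes of that list was instead higher in replicate 2, at 28.8 and 37.3 CPM. It includes Pdgfrb, at 0.968 and 10.1 CPM, which the detection rule left out of the median. The summed level of 6 cortical glutamatergic markers was 10.6 CPM in replicate 1 against 20.6 in replicate 2. The share of counted reads assigned to no gene feature was 22.8% in replicate 1 and 31.0% in replicate 2. The same totals held 27.9% and 13.6% of reads without a unique alignment, so these shares do not stand on an equal base. With the strand setting not given, they may also include antisense reads within exons. The part of these differences in the ratios of Calcr, Gpr101 and Arhgap36 was not tested.

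Other genes known for regional expression lay on both sides of 0. Of 10 further ventral genes 9 were detected, with a median log2 ratio of -0.40 and 3 above 0, while 6 of the 8 ventral markers described here lay above 0. Among the further genes only Cartpt, which encodes a neuropeptide precursor of accumbens neurons, was called, at 95.1 and 40.3 CPM in replicates 1 and 2 (log2 ratio -1.21). Over all detected genes 7.78% were called higher in replicate 1. Tnnt1, named after its values were seen, stood at 6.27 and 0.778 CPM and was left out by the detection rule. The imprinted gene Nnat stood at 201 and 111 CPM and Hap1, which encodes a partner of huntingtin, at 118 and 112 CPM, and neither was called. On the dorsolateral side, the matrix glycoprotein gene Reln was called higher in replicate 2, at 46.9 and 121 CPM. The cannabinoid receptor gene Cnr1 stood at 34.9 and 58.6 CPM and was not called. Both regions thus had genes with ratios above 0, and the difference between the lists was not tested.

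**Figure D4:**
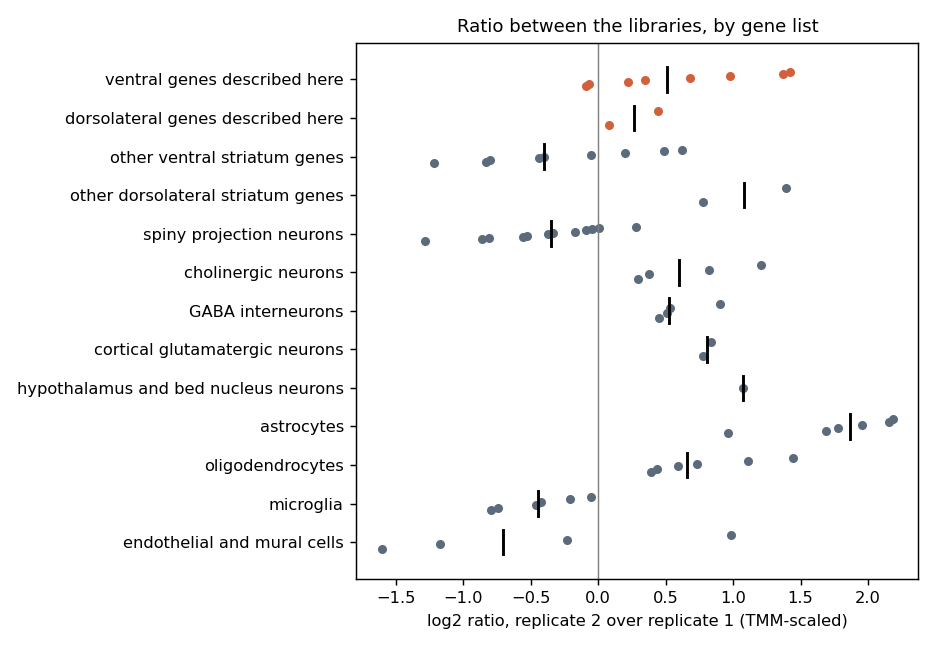
Log2 ratio of replicate 2 over replicate 1 for each detected gene of 13 lists, with the list median as a black bar and the 10 genes described here in orange. Astrocyte markers lie farthest to the right, at a median of 1.87, the ventral genes described here have a median of 0.51 and the spiny neuron markers one of -0.35.

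Start-site sequences are shown for Gpr101 and Calcr because these were the only markers called, and because the pair of Calcr starts differ in their content of CG dinucleotides, the sites of DNA methylation. Windows of 300 bases, 250 before and 50 after each start, came from RefSeq on GRCm38.p6 and were found for 8 of the 10 genes, 10 windows in all. Capitals mark CG dinucleotides. Each window is given 5′ to 3′ on the minus strand, the strand of both genes.
Gpr101, chrX:57503708-57504007: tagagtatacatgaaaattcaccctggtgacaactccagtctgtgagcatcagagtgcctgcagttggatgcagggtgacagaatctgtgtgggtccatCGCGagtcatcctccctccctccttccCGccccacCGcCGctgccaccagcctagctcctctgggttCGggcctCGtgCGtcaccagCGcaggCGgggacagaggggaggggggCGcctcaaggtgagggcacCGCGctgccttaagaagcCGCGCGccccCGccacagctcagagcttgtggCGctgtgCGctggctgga
Calcr upstream start, chr6:3764664-3764963: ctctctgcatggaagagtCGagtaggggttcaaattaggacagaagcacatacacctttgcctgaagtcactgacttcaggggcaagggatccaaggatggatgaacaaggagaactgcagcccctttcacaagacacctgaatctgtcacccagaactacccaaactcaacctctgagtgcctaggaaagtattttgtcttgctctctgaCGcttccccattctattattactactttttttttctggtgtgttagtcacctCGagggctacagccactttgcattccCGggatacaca
Calcr downstream start, chr6:3763574-3763873: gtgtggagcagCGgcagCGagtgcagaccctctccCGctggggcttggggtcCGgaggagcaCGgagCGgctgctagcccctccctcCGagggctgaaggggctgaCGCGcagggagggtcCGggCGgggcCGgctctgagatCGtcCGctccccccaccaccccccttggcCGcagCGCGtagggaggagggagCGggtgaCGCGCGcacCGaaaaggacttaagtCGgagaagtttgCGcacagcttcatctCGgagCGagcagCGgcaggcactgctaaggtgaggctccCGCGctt

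The Gpr101 window holds 19 CG dinucleotides at 64.3% G and C, the upstream Calcr window 4 at 47.3%, and the downstream Calcr window 29 at 70.0%. The median over 32851 windows of the table was 7, with quartiles of 3 and 20. Among the other markers, Coch had 32, Wfs1 30, Gpr155 20, Zcchc12 11 and Dlk1 9, and the starts of Arhgap36 had 3 and 7. The least abundant marker, Coch, and one of the most abundant, Wfs1, thus both start in CG-rich sequence. The GC box GGGCGG, searched on both strands, was in 6 of the 10 windows and in 35.7% of all windows. The other motifs were also searched on both strands. TATAAA was in 1, that of Coch, where it reads on the strand opposite to the gene, against 13.6% of all. TGACGTCA and CACGTG were in 0 of the 10, against 1.79% and 7.15%. No motif searched contains another, and reads per gene do not show which Calcr start was used.

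Of the 10 markers 3 lie on the X chromosome (Arhgap36, Zcchc12 and Gpr101), and Dlk1 and Peg10 lie in clusters of imprinted genes. The nearest ends of Calcr and Peg10 lie 983 kb apart on chromosome 6. Of 11 genes listed around this pair, 7 were detected and 0 were called in either direction by the exact binomial test, with a median log2 ratio of -0.08, and 4 had an unadjusted p below 0.05, as did 79.6% of all detected genes. Ppp1r9a, which encodes an actin-binding scaffold of synapses, was the most abundant of them at 1566 and 2421 CPM, a log2 ratio of 0.65 beside 0.68 for Peg10. Casd1 stood at 114 and 89.3 CPM. Asb4, named after its values were seen, stood at 0.968 and 4.87 CPM and was left out by the detection rule. Sgce, named after its values were seen because it shares a promoter region with Peg10 and is expressed from the same parental copy, stood at 48.3 and 34.6 CPM, a log2 ratio of -0.45. The neighbours of Peg10 thus lay on both sides of 0.

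Dlk1 shares its imprinted cluster on chromosome 12 with noncoding RNA genes expressed from the maternal copy. All 6 genes listed there were detected, and 4 were called higher in replicate 2, against 9.57% of all detected genes. Begain and Dio3, named after their values were seen, lay below 0 and were not called. Begain stood at 30.6 and 23.5 CPM (log2 ratio -0.36) and Dio3 at 2.13 and 1.39 CPM (-0.59). Dlk1 itself stood at a log2 ratio of -0.07. The long noncoding RNA Meg3 stood at 927 and 2367 CPM (log2 ratio 1.38), and Rian at 92.0 and 202 CPM (1.16). Mirg, a host of many microRNAs, stood at 2.36 and 12.7 CPM (2.45). Rtl1, a retrotransposon-derived gene with antisense transcripts from the other parental copy, stood at 2.71 and 13.0 CPM (2.29). The strand setting of the counts is not given in the sources used here, so sense and antisense reads of Rtl1 cannot be told apart. The share of counted reads assigned to no gene feature was higher in replicate 2 as well, over totals that differ in non-unique alignments. Meg3, Rian and Mirg are nuclear noncoding RNAs. The part of such RNA in these ratios was not tested.

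**Figure D5:**
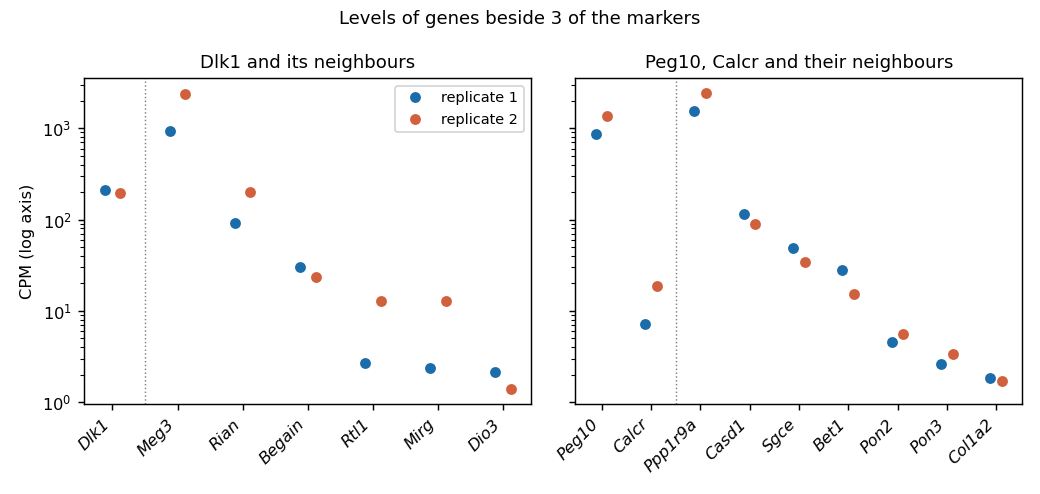
CPM (log axis) in both libraries of Dlk1 with the genes of its imprinted cluster (left) and of Peg10 and Calcr with the detected genes around them (right). Dlk1 differs little between libraries, at 211 and 197 CPM, while Meg3, Rian, Rtl1 and Mirg are each higher in replicate 2. Begain and Dio3 are higher in replicate 1.

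Partners of the receptors were present in part. Of 8 genes for calcitonin and amylin receptor partners and ligands, 3 were detected. Of those, 2 were called, both higher in replicate 1, the opposite direction to Calcr (background 7.78%). Ramp1, which pairs with Calcr to form an amylin receptor, stood at 26.9 and 11.2 CPM (log2 ratio -1.24). Ramp3, which can do the same, stood at 9.56 and 1.79 CPM (-2.39). The related receptor gene Calcrl stood at 9.37 and 10.5 CPM and was not called. Per kilobase, Calcr was below Ramp1 in replicate 1, at 1.83 against 8.89, and above it in replicate 2, at 4.81 against 3.70. Iapp and Calcb, which encode the ligands amylin and a calcitonin gene-related peptide and were named after their values were seen, had 0 reads in both libraries. With a floor of 3 reads, a count of 0 leaves room for 0.116 CPM in the first library and 0.101 CPM in the second, and the exact 2-sided Poisson 95% interval used above reaches 0.143 and 0.125 CPM. For Gpr101, the stimulatory G protein genes Gnal and Gnas stood at 2681 and 2283 CPM and at 974 and 902 CPM. In this list 0 of 3 genes were called, with 2 at an unadjusted p below 0.05, as were 79.6% of all detected genes.

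For the intracellular markers, counts of pathway genes stand beside the background given above, 17.4% of all detected genes called and 79.6% at an unadjusted p below 0.05. For Crym, 13 of 16 thyroid hormone genes were detected and 0 were called, with 10 at an unadjusted p below 0.05 and a median log2 ratio of -0.41. They were led by the nuclear receptor cofactor genes Ncor1 at 516 and 555 CPM and Ncoa1 at 438 and 521 CPM. The receptor genes Thra and Thrb, named after their values were seen, stood at 182 and 134 CPM and at 222 and 159 CPM. For Wfs1, all 17 genes of ER stress and calcium handling were detected and 0 were called, with 13 at an unadjusted p below 0.05 and a median of 0.01. The calcium release channel gene Itpr1 stood at 956 and 1074 CPM, and the calcium pump gene Atp2a2 at 746 and 900 CPM.

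For Zcchc12, 12 of 13 BMP pathway genes were detected and 3 were called, all higher in replicate 2 (background 9.57%). These were the receptor gene Bmpr1b at 4.72 and 9.54 CPM and the target genes Id2 at 1.47 and 4.29 CPM and Id3 at 1.66 and 3.89 CPM. The abundant members, the receptor gene Bmpr2 at 701 and 827 CPM and the coactivator gene Crebbp at 373 and 374 CPM, were not called. For Arhgap36, 7 of 11 hedgehog and protein kinase A genes were detected. The kinase genes Prkacb and Prkaca stood at 1234 and 1335 CPM and at 226 and 151 CPM. Of the detected genes only the ligand gene Shh, at 1.78 and 4.94 CPM, was called, higher in replicate 2 (background 9.57%). Smo, Gpr161, Gli1 and Kif7, named after their values were seen, were left out by the detection rule. Smo stood at 0.697 and 5.58 CPM and Gpr161 at 0.116 and 1.01 CPM. Gli1 stood at 3.87 and 0.203 CPM and Kif7 at 0.194 and 0.169 CPM.

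For Dlk1, 11 of 17 Notch pathway genes were detected, led by the transcriptional repressor gene Hey1 at 128 and 66.6 CPM and the Notch inhibitor gene Numb at 28.8 and 43.1 CPM. Of the detected genes only the ligand gene Dll1, at 1.12 and 4.60 CPM, was called, higher in replicate 2 (background 9.57%). Genes left out by the detection rule, named after their values were seen, include Notch3 at 0.929 and 4.29 CPM and Hey2 at 0.348 and 2.23 CPM. Hes5, also left out, went the other way, at 1.43 and 0.710 CPM. Of 18 other genes derived from retrotransposon gag sequences, the origin that Peg10 shares with Zcchc12 and its relatives, 15 were detected. Some of them are near-identical copies, among which reads may be split, and these are not named. Pnmal2 led at 371 and 368 CPM, next to Zcchc18 at 137 and 188 CPM. Rgag1 and Rtl1 were called higher in replicate 2 (background 9.57%). Zcchc16 was called higher in replicate 1, at 8.56 and 2.03 CPM (background 7.78%). By the exact binomial test 12 of the 15 had an unadjusted p below 0.05, as did 79.6% of all detected genes.

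For the dorsolateral genes, all 17 genes of lysosomal cholesterol handling and mTOR signalling listed for Gpr155 were detected and 0 were called, with 16 at an unadjusted p below 0.05 (79.6% of all detected genes) and a median log2 ratio of 0.31. The kinase gene Mtor stood at 133 and 222 CPM, and the GTPase gene Rragd at 170 and 182 CPM. Of 5 other genes whose proteins carry the LCCL domain of cochlin, 3 were detected and 0 were called, with 1 at an unadjusted p below 0.05. Vit and Crispld2, named after their values were seen, were left out by the detection rule. Vit had 0 reads in replicate 1 and 160 in replicate 2, and Crispld2 had 15 and 12. The membrane protein genes Dcbld2 and Dcbld1 stood at 20.2 and 22.0 CPM and at 8.28 and 6.97 CPM.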

How the data were processed

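RNA from the anti-EGFP pull-down was sequenced in 2 libraries of 1 group, labelled replicates 1 and 2. The deposited values are raw read counts for each symbol, as their whole numbers and closing HTSeq summary lines show. STAR 2.0.0e, HTSeq and the build mm10 are named in the submitters' processing notes. Annotation, strand setting and read filters: not given in the sources used here. Each file has 6 rows without a gene, which were dropped, with 52.5% of the counted reads of replicate 1 and 46.6% of those of replicate 2.

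Counts were scaled to CPM by the total in genes. Poisson 95% intervals and the floor of 3 reads cover counting error only. Exon lengths and coordinates came from GENCODE M21 (GRCm38) by symbol, with a length for 92.7% of detected genes. Library sizes for the between-library test were scaled with edgeR 4.0.16 (TMM over detected genes), and with DESeq2 1.42.0 size factors as an alternative. The binomial test was checked on simulated counts with Poisson error only. That is the error the test assumes, so the check cannot show how the test behaves with spread between libraries. The test has no term for such spread, and p-values measure only differences between these libraries, which may be technical.

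The 10 genes and all lists were chosen with earlier results of these data known. Every one of the 10 is named, and of each pathway list the 2 genes with the highest mean CPM and each called gene. With 2 libraries, no likeness of pattern between genes was computed.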

Additional observations from a re-analysis of the deposited data

How the results depend on the processing

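With no fold minimum 8 of the 10 genes passed the exact binomial test between libraries, and with a 1.5-fold minimum 4 did (background 38.3%), the additions being Peg10 and Arhgap36. With plain totals, DESeq2 size factors, a filter of 1 read in either library or a mean of 5 CPM, Calcr and Gpr101 were the 2 genes called, against backgrounds of 17.4%, 17.3%, 29.7% and 14.5%. The median of the ventral genes minus that of the dorsolateral genes, 3.34 log2 units per kilobase, was 3.07 without a length correction and 2.88 with a pseudocount of 1. Leaving out each replicate gave 3.18 to 3.50. The order of the 10 genes was the same with the longest transcript as length, with pseudocounts of 1 and 0.01 and in each library alone. Without Rn45s in the totals, mean CPM rose by more than the SD for Crym, Dlk1 and Gpr155, to 133, 218 and 86.7. No paired analysis was possible because the study has a single group. Depth limits Coch most, at 64 and 98 reads.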
